A study of Mus musculus with 30 samples.

Results

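The mitochondrial chromosome of the mouse carries 37 genes, and these were taken as all gene rows of the count tables that the GRCm38 annotation (GENCODE M21) places on that chromosome, 37 of 43629 rows. They are 13 protein genes, 2 ribosomal RNAs (rRNAs) and 22 transfer RNAs (tRNAs), and all 37 carried symbols beginning with mt-. The cells were bone marrow derived macrophages of C57BL/6 mice, grown with the growth factor CSF-1 at 20 ng/mL and used on day 7, with 3 libraries in each of 10 groups. Wild type cells either stayed unstimulated or received IL-4 (20 ng/mL), and 2 further IL-4 groups had a second agent as well: prostaglandin E2 (PGE2, 10 µM) in one and valinomycin (10 nM) in the other. In the shRNA experiment, cells carrying a control shRNA or an shRNA against Etv1, an ETS family transcription factor, had no stimulus, IL-4, or IL-4 with PGE2 at the same doses. All groups received CSF-1. The hairpins were delivered with lentivirus, 1 group of libraries stood for each hairpin at each stimulus, and the labels give neither the hairpin sequences nor the time of stimulation. Both experiments used poly(A)-selected stranded mRNA libraries.

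Mitochondrial DNA is transcribed from both strands by the RNA polymerase POLRMT into long transcripts, which are cut at the tRNAs that punctuate them into messenger, ribosomal and transfer RNAs. The protein genes encode subunits of the respiratory chain and of ATP synthase: the mt-Nd genes belong to complex I, mt-Cytb to complex III, the mt-Co genes to complex IV and the mt-Atp genes to ATP synthase. mt-Rnr1 and mt-Rnr2 are the 12S and 16S RNAs of the mitochondrial ribosome. Most mitochondrial mRNAs carry a short poly(A) tail, the rRNAs carry a few added A at most, and tRNAs end in CCA, so a poly(A) library samples the 3 classes unequally. Valinomycin carries potassium ions across membranes and so lowers the potential of the inner mitochondrial membrane, IL-4 drives alternative activation of macrophages and PGE2 raises cyclic AMP through its receptors. The study's title asks whether the membrane potential of mitochondria bears on gene expression in macrophages exposed to PGE2.

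The following stretches belong to the rRNAs, whose levels moved most, and to mt-Atp8, mt-Tl1 and mt-Tm, counted in one experiment and hardly in the other. mt-Tw, a tRNA counted in both experiments, is shown as well. The stretches are from GENCODE M21 transcripts on GRCm38, are written 5′ to 3′ and all lie on the plus strand. The longest run of A was 5 bases in mt-Rnr1 (chrM:70-1024) and 7 in mt-Rnr2 (chrM:1094-2675), against 8 in mt-Nd2 and 7 in mt-Co1. Capitals mark the longest run of A at chrM:680-734 and chrM:1463-1519, and runs of at least 4 A within the last 100 bases at chrM:2576-2675. The last 100 bases of mt-Rnr1, at chrM:925-1024, hold no such run.
mt-Rnr1, around its longest run of A: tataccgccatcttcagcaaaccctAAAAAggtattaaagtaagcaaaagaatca
mt-Rnr2, around its longest run of A: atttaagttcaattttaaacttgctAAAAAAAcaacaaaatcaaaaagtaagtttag
mt-Rnr1, 3′ end: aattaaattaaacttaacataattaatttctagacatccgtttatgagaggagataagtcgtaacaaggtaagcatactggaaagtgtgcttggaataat
mt-Rnr2, 3′ end: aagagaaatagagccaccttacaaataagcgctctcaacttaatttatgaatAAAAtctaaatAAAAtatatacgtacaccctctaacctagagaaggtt
mt-Atp8 (chrM:7766-7969), with the 43 bases that overlap mt-Atp6 in capitals: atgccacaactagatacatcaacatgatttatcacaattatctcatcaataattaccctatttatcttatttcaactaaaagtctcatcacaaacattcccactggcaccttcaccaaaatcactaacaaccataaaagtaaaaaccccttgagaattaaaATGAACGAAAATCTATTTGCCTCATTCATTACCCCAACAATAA
mt-Tl1 (chrM:2676-2750), with its anticodon in capitals: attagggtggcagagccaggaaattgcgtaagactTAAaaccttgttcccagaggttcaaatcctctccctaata
mt-Tm (chrM:3845-3913), likewise: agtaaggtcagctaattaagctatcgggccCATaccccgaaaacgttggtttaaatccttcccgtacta
mt-Tw (chrM:4950-5016), likewise: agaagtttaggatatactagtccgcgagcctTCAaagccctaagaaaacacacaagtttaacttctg

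The wild type libraries held between 10514496 and 13414293 counts each, and the shRNA libraries between 6924973 and 30473040. Levels are CPM, counts relative to the library size as scaled within an experiment, and the experiments were scaled separately. All 8 macrophage markers were counted in every group. Their summed level was 14617 to 19258 CPM in wild type and 16135 to 19987 CPM in control shRNA libraries, but 8836 to 10128 CPM in the 9 Etv1 shRNA libraries. Neutrophil markers summed to 212 to 342 CPM in wild type and to 2.46 CPM or less in shRNA libraries, and dendritic markers to 313 to 806 CPM in wild type and 10.0 to 115 CPM in shRNA libraries. Lymphocyte, stromal, mast cell and erythroid lists reached 8.21 CPM at most in any library. Etv1 itself was at 2.51 to 9.86 CPM over the Etv1 shRNA libraries and at 10.4 to 33.1 CPM over the control shRNA libraries, without overlap at any stimulus. In bulk libraries such as these, a smaller share of 1 cell type and less RNA per cell cannot be told apart. Whether the 3 libraries of a group stand for different animals or cultures is not in the labels, and the p-values then measure only the spread between libraries, which may be technical.

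Protein genes gave nearly all counts of the mitochondrial chromosome outside the valinomycin group. Their sum was 12620 ± 1498 CPM (SD, n = 3) with IL-4 in wild type, or 1.26% of all counts, against 268 ± 69.9 CPM or 0.0268% for the 2 rRNAs and 0.966 ± 0.393 CPM for the 22 tRNAs. With valinomycin the protein genes summed to 10847 ± 534 CPM and the rRNAs to 8020 ± 459 CPM, or 0.795% of all counts, and the tRNAs to 0.773 ± 0.394 CPM. The whole chromosome took 1.29% of counts with IL-4 and 1.87% with valinomycin. Without stimulus in wild type the protein genes summed to 13774 ± 533 and the rRNAs to 409 ± 28.9 CPM, and with PGE2 to 14127 ± 249 and 342 ± 26.6 CPM.

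In control shRNA libraries the protein genes summed to 10612 ± 307 CPM without stimulus, 10916 ± 483 CPM with IL-4 and 12548 ± 681 CPM with PGE2. The rRNAs summed there to 234 ± 15.6, 219 ± 7.54 and 293 ± 36.3 CPM. In Etv1 shRNA libraries the corresponding sums were 10021 ± 181, 10516 ± 286 and 11563 ± 347 CPM for the protein genes and 168 ± 14.5, 169 ± 5.59 and 194 ± 9.94 CPM for the rRNAs. The tRNAs summed to 3.59, 3.88 and 4.25 CPM in control shRNA and to 4.69, 5.69 and 5.21 CPM in Etv1 shRNA libraries, in the same order of stimuli. The order of the hairpins in the protein-gene sums depends on the scaling: as a share of all counts they were 1.04%, 1.04% and 1.15% in control shRNA against 1.08%, 1.10% and 1.19% in Etv1 shRNA libraries, which is higher with the Etv1 hairpin where the scaled CPM are lower. The rRNA sums were lower with the Etv1 hairpin on both scales. In both hairpin groups the PGE2 group had the highest mean sums of protein genes and of rRNAs. No test was run on these sums.

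Per kilobase, mt-Co1 (chrM:5328-6872, the catalytic core of complex IV) was the highest member in both experiments, with 4655 CPM per kilobase over the wild type libraries (4074 to 5217) and 3708 over the shRNA libraries (3107 to 4712). It gave 56.0% of protein-gene counts in wild type and 52.2% in shRNA libraries. mt-Cytb (chrM:14145-15288) was next, at 1553 (1071 to 1842) and 1457 (1302 to 1681) CPM per kilobase, and mt-Nd1 (chrM:2751-3707) the third at 1209 (904 to 1473) and 1076 (954 to 1211), so the ranges of mt-Cytb and mt-Nd1 overlapped in wild type and did not in the shRNA libraries. mt-Nd5 (chrM:11742-13565), mt-Nd2 (chrM:3914-4951) and mt-Nd4 (chrM:10167-11544) lay between 458 and 686 CPM per kilobase on average. mt-Nd6 (chrM:13552-14070), the only protein gene of the minus strand, lay at 18.9 and 32.2 CPM per kilobase. mt-Rnr2 and mt-Rnr1 averaged 90.05 and 73.5 CPM per kilobase over the shRNA libraries. In wild type they ranged from 70.4 to 3650 and from 82.5 to 2877, the highest values being those with valinomycin.

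Several members were close to 0 counts. mt-Co2, mt-Atp6, mt-Co3, mt-Nd3 and mt-Nd4l averaged between 0.0663 and 2.37 CPM per kilobase in either experiment, below mt-Nd6. mt-Atp8, of the ATP synthase, was high in wild type, at 727 CPM per kilobase, and had 21395 counts over the 12 wild type libraries, but only 43 counts over the 18 shRNA libraries. The tRNAs mt-Tl1 and mt-Tm, for leucine and methionine, went the other way, with 4 and 27 counts in wild type against 262 and 313 in shRNA libraries. The cause of these differences between the experiments was not tested.

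**Figure D1:**
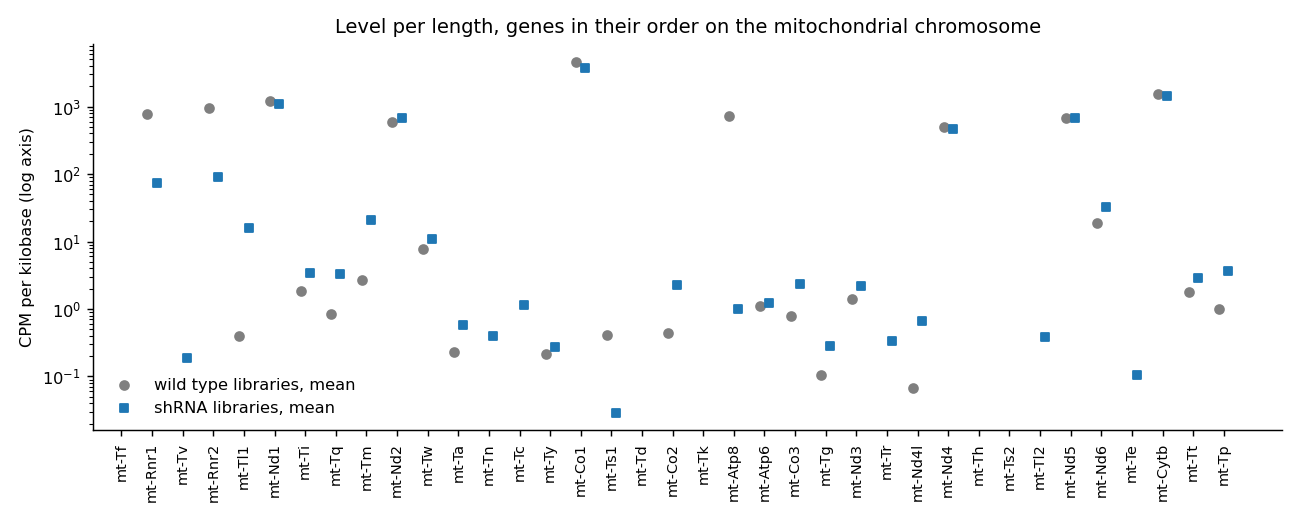
Mean CPM per kilobase (log axis) of each member in the 12 wild type libraries (circles) and the 18 shRNA libraries (squares), in the order of the genes on the chromosome, with the experiments scaled separately and members without counts not drawn. mt-Co1 is highest at 4655 and 3708, mt-Atp8 is at 727 in wild type and 0.991 in shRNA libraries, and the wild type means of the 2 rRNAs include the valinomycin group.

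mt-Co2, mt-Atp6, mt-Co3, mt-Nd3 and mt-Nd4l, the 5 protein genes near 0 in both experiments, have nuclear copies of 99.71 to 100% identity over nearly their whole length. A stretch of chromosome 1 (chr1:24611535-24616197, minus strand) holds 7 annotated pseudogenes in mitochondrial gene order. Over at least 98.99% of the member's length, Gm28661 was identical to mt-Co2, Gm10925 to mt-Atp6, Gm28437 to mt-Co3 and Gm10222 to mt-Nd4l, and Gm28438 differed from mt-Nd3 at 1 base, T3C (the member's base first, positions counted from 1 at the 5′ end of the member). Gm28439 was identical to the first 876 bases of mt-Nd4, or 63.6% of it, and Gm29216 matched the last 483 bases of mt-Co1, or 31.3% of it, with the difference A1066T. The stretch that holds this difference, at chrM:6390-6423 in mt-Co1, is shown with the differing base in capitals.
mt-Co1: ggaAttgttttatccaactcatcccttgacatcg
Gm29216: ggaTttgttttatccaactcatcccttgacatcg
No annotated nuclear transcript matched mt-Rnr1, mt-Rnr2, mt-Nd1, mt-Nd6, mt-Cytb or mt-Atp8 at 95% identity over 50 bases on the same strand. Gm13340 on chromosome 2 matched mt-Co1 over its whole length at 97.6% identity, Gm13339 on chromosome 2 matched mt-Nd2 over 510 bases (49.1% of it) at 96.7% and Gm4076 on chromosome 13 matched mt-Nd5 over 954 bases (52.3% of it) at 95.2%. Gm13341 on chromosome 2 matched mt-Co2 over its whole length at 95.9%.

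The pseudogenes themselves had few counts. Gm28661 had 137 in wild type and 310 in shRNA libraries, Gm10925 had 105 and 296, and Gm28437 had 122 and 289. The counts of mt-Co2 (44 and 332), mt-Atp6 (108 and 176) and mt-Co3 (89 and 407) were of the same order. How reads that fit more than 1 place were counted is not given in the sources used here. The values of mt-Co2, mt-Atp6, mt-Co3, mt-Nd3 and mt-Nd4l are therefore uncertain, as are those of mt-Nd4, mt-Co1, mt-Nd2 and mt-Nd5 over the copied stretches. Gm13339 had 3 and 29 counts and Gm4076 6 and 26, against 89472 and 153756 for mt-Nd2 and 180395 and 269659 for mt-Nd5. Between Gm10925 and Gm28661, where mt-Atp8 would lie in the mitochondrial order, 233 bases carry no annotated copy, and that stretch was not analysed here. Gm10925 matches mt-Atp6 from base 1, and the last 43 bases of mt-Atp8 overlap mt-Atp6. Whether the rest of mt-Atp8 has a nuclear copy was not determined, so its values are uncertain as well.

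Of the 37 members, 10 had enough counts to be tested in wild type (2 rRNAs and 8 protein genes) and 16 in the shRNA experiment (2 rRNAs, 11 protein genes and 3 tRNAs). They were tested in a fit over all 12824 or 12382 genes with edgeR's quasi-likelihood test, and a gene is called where its p, adjusted by Benjamini and Hochberg's method, is under 0.05. For valinomycin on IL-4, 6 of 10 members were called, 2 higher and 4 lower, where 38.4% of all genes tested were called (19.4% higher and 18.9% lower). For PGE2 on IL-4 in wild type, 4 of 10 were called, all higher, against 59.4% of all genes (29.9% higher), and IL-4 against no stimulus called 3 of 10, all lower, against 46.4% (24% higher and 22.4% lower). PGE2 against valinomycin called 8 of 10, 6 higher and 2 lower, against 63.2% (31.7% higher and 31.5% lower). These 4 comparisons share libraries, the first 3 of them the IL-4 libraries. The p-values given ignore the replicate number, by which libraries of the groups with IL-4 correlated.

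In the shRNA experiment, PGE2 on IL-4 called 6 of 16 members in control shRNA cells, all higher, against 59.4% of all genes (29.3% higher), and 3 of 16 in Etv1 shRNA cells, all higher, against 47.5% (24.6% higher). IL-4 against no stimulus called none of 16 by edgeR or DESeq2 in either, where 34.3% (17.2% higher, 17.1% lower) and 18% (10.9% higher, 7.16% lower) of all genes were called; at an unadjusted p under 0.05 there were 2 members in control shRNA cells, mt-Nd1 and mt-Cytb, and 1 in Etv1 shRNA cells, mt-Nd2. With the replicate number as a block shared by both hairpins, mt-Cytb was called for IL-4 in control shRNA cells (0.12, adjusted p = 0.0353). So was mt-Tw for PGE2 in Etv1 shRNA cells (0.96, adjusted p = 0.046). The other p-values given here ignore the replicate number, and no fit paired libraries within each hairpin alone. Etv1 against control shRNA called 5 of 16 without stimulus (2 higher, 3 lower), 5 with IL-4 (2 higher, 3 lower) and 7 with PGE2 (2 higher, 5 lower), against 51.7% (24.9% higher, 26.8% lower), 51% (25.4% higher, 25.6% lower) and 54.3% (27.6% higher, 26.7% lower) of all genes. Scaled by plain totals, these 3 splits were 4 higher and 1 lower, 4 and 1, and 4 and 3, and that of PGE2 in control shRNA cells was 5 and 1. In the same 4 comparisons plain totals called 6784, 6730, 7238 and 7305 of all genes, against 6405, 6317, 6722 and 7360 in the main fit. The median log2 fold change of all genes shifted there by 0.13, 0.127, 0.159 and -0.06. In the main fit, the share of members called was above that of all genes for valinomycin on IL-4 and for PGE2 against valinomycin, over 10 members. It was below that share in the other comparisons.

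Some of these counts moved by over 1.5 times when 1 library was left out. The IL-4 count in wild type was 5 without IL-4 replicate 1 and 1 without replicate 2 or 3 of the unstimulated group, and the PGE2 count in wild type was 2 without IL-4 replicate 2. In the shRNA experiment the IL-4 count in control shRNA cells was 1 without unstimulated replicate 3. The Etv1 count was 3 without stimulus when Etv1 shRNA replicate 3 was left out. Under IL-4 it was 2 without Etv1 shRNA replicate 1, and 3 without Etv1 shRNA replicate 3 or control shRNA replicate 2. Under PGE2 it was 4 without control shRNA replicate 3. In wild type, IL-4 replicate 2 was the lowest of its 3 libraries for all 10 tested members, and results that rest on it are given with and without it.

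With valinomycin the counts of both rRNAs rose about as far as each other. In poly(A)-selected libraries, a change in rRNA amount and a change in the part of it captured cannot be told apart. This limit applies to every rRNA value here. mt-Rnr1 was at 2570.3, 2664 and 2748 CPM with valinomycin and at 96.5, 78.8 and 111 CPM with IL-4 alone. mt-Rnr2 was at 5345, 4958 and 5774 CPM with valinomycin and at 193, 111 and 214 CPM with IL-4 alone. The lowest valinomycin library lay more than 10 times above the highest library of any other wild type group for each rRNA. The log2 fold change was 4.80 ± 0.11 for mt-Rnr1 (27.9-fold, adjusted p = 4.42e-12) and 4.96 ± 0.23 for mt-Rnr2 (31.02-fold, adjusted p = 4.3e-07). Both calls held in every alternative run, each library left out in turn included.

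No messenger RNA of the same strand was called as higher beside them. The ratio of mt-Rnr2 counts to counts of mt-Nd1, a complex I gene that lies directly downstream of mt-Rnr2 and mt-Tl1, was 5.41, 5.57 and 5.81 in the valinomycin libraries and 0.139, 0.129 and 0.173 in the IL-4 libraries. The ratio of mt-Rnr1 to mt-Co1 counts was 0.398 to 0.411 with valinomycin and 0.0124 to 0.0150 with IL-4. The ratio of mt-Rnr2 to mt-Rnr1 counts, in contrast, was 1.86 to 2.10 with valinomycin, within the 1.41 to 2.35 of the other wild type libraries. Of the 85 genes listed as RNAs usually made without a poly(A) tail (histone, small nuclear and nucleolar RNAs and the like), 13 could be tested, and 1 was higher with valinomycin and none lower by edgeR, with a median log2 fold change of -0.027, equal to that of all genes to 2 digits. The one was the linker histone gene Hist1h1b, at log2 2.19 ± 0.49 (adjusted p = 0.000962). The summed level of the 85 was 118 to 147 CPM with valinomycin and 122 to 135 CPM with IL-4, so the groups overlapped. Whether these nuclear RNAs bear on the capture of mitochondrial rRNA was not tested.

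**Figure D2:**
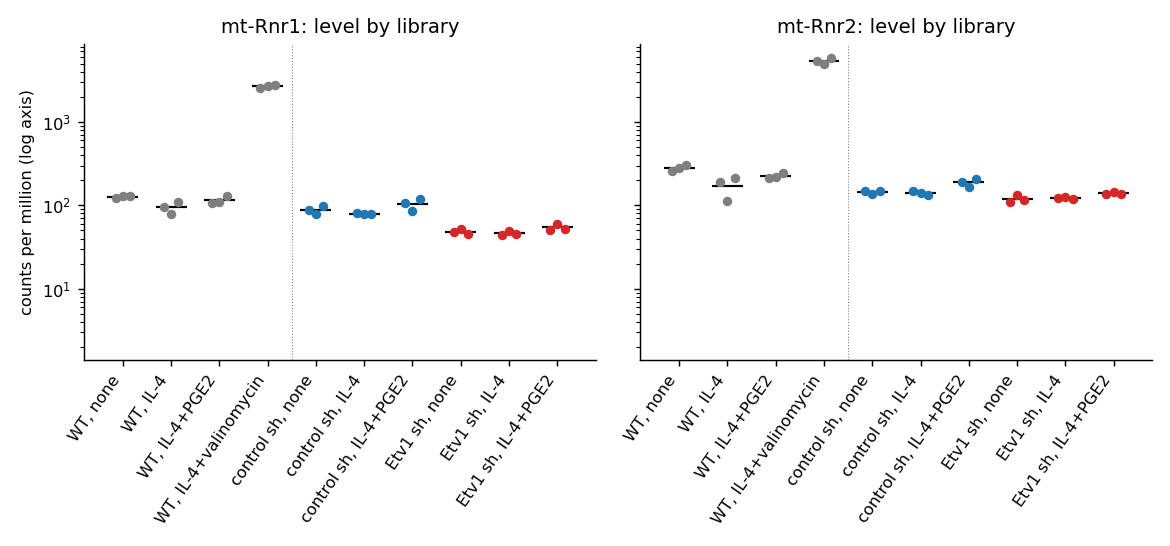
CPM (log axis) of mt-Rnr1 and mt-Rnr2 in each library of the 10 groups, with a bar at the group mean; the dotted line parts the 2 experiments, which were scaled separately. The valinomycin libraries sit at 2570.3 to 2748 CPM and 4958 to 5774 CPM, and the Etv1 shRNA libraries lie below the control shRNA libraries at each stimulus.

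The rRNA values for IL-4 alone and for PGE2 were smaller. Without stimulus mt-Rnr1 was at 124, 129 and 130.2 CPM in wild type, above all 3 IL-4 libraries, with a log2 fold change of -0.42 ± 0.10 for IL-4 (adjusted p = 0.00466). mt-Rnr2 was at 256, 282 and 306 CPM without stimulus, also above all 3 IL-4 libraries, with -0.70 ± 0.21 (adjusted p = 0.0227). That second call was lost without unstimulated replicate 2 (adjusted p = 0.0557) or replicate 3 (adjusted p = 0.0723), and without IL-4 replicate 2 the value was -0.47 and still called (adjusted p = 0.000237). In the shRNA experiment neither rRNA was called for IL-4, with -0.16 ± 0.10 and -0.044 ± 0.071 in control shRNA cells and -0.061 ± 0.11 and 0.028 ± 0.072 in Etv1 shRNA cells. Whether the IL-4 effect differs between the experiments was not tested.

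PGE2 on IL-4 left mt-Rnr1 in wild type at 108, 111 and 129 CPM and mt-Rnr2 at 215, 219.9 and 243 CPM. The mt-Rnr1 groups overlapped, and its log2 fold change of 0.28 ± 0.10 was called (adjusted p = 0.0336) but lost without IL-4 replicate 1 (adjusted p = 0.0894), IL-4 replicate 2 (log2 0.15, adjusted p = 0.0714) or PGE2 replicate 3 (adjusted p = 0.115). mt-Rnr2 had 0.39 ± 0.21, not called (adjusted p = 0.148), although its groups did not overlap.

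In control shRNA cells both rRNAs rose with PGE2. mt-Rnr1 went from 80.4, 79 and 77.7 CPM with IL-4 to 106, 85.8 and 119.7 CPM (log2 0.40 ± 0.10, adjusted p = 0.00267). mt-Rnr2 went from 147, 139.7 and 134 to 192, 168 and 206 CPM (log2 0.43 ± 0.071, adjusted p = 3.42e-05). The groups did not overlap for either gene. In Etv1 shRNA cells mt-Rnr1 was at 44.3, 49.8 and 45.2 CPM with IL-4 and 51, 60.3 and 52 CPM with PGE2 (log2 0.23 ± 0.11, not called, adjusted p = 0.0985). mt-Rnr2 was at 123, 125 and 118 and 137, 145 and 136 CPM (log2 0.19 ± 0.072, adjusted p = 0.0359), a call that was lost when any of the 6 libraries was left out, with adjusted p from 0.055 (without IL-4 replicate 2) to 0.127 (without PGE2 replicate 2).

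The test of the difference between the PGE2 effects of the 2 hairpin groups called none of the 16 members by edgeR or DESeq2, where 11.6% of all genes were called (6.03% higher, 5.58% lower). At an unadjusted p under 0.05 there was 1, mt-Rnr2, with a log2 difference (Etv1 minus control shRNA) of -0.24 ± 0.10 (adjusted p = 0.14). Without control shRNA PGE2 replicate 2, mt-Rnr2 was called at -0.32 (adjusted p = 0.0281). The difference of the IL-4 effects called none by either tool, none at an unadjusted p under 0.05, and 4.51% of all genes (2.71% higher, 1.81% lower).

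**Figure D3:**
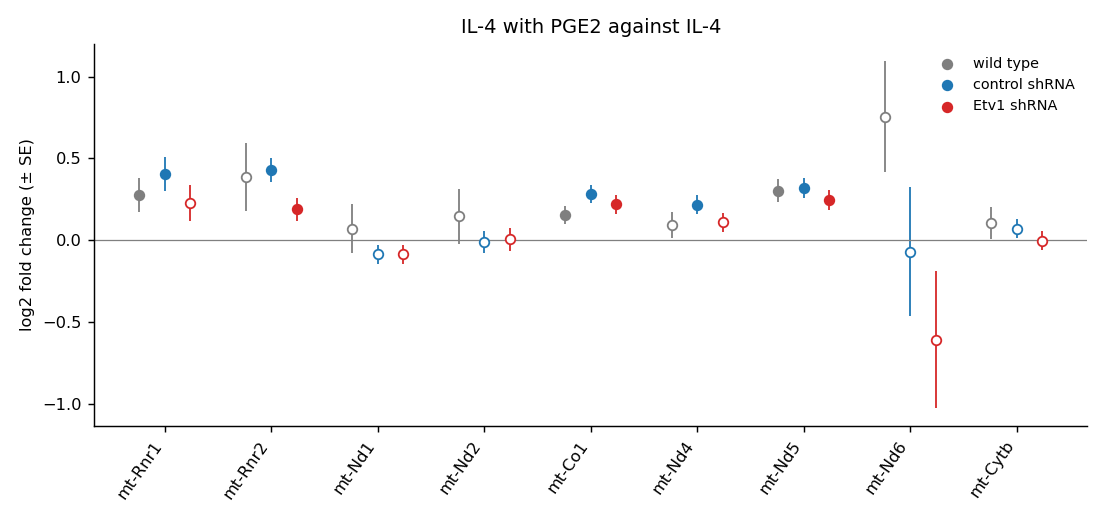
Log2 fold change (± SE) of IL-4 with PGE2 against IL-4 for the 2 rRNAs and 7 protein genes in the wild type, control shRNA and Etv1 shRNA libraries; filled points are called at an adjusted p under 0.05. mt-Co1 and mt-Nd5 are filled in all 3 settings, and mt-Nd1 lies at 0.071, -0.086 and -0.086, called in none.

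Among protein genes, PGE2 on IL-4 raised mt-Co1 and mt-Nd5 in all 3 settings and lowered none, except mt-Nd1 in control shRNA cells when scaled by plain totals (-0.15, adjusted p = 0.0362). mt-Nd5, a complex I subunit of the membrane arm, was at 1325, 1053 and 1226 CPM with IL-4 in wild type and at 1514, 1489 and 1446 CPM with PGE2 (log2 0.30 ± 0.068, adjusted p = 0.000908). In control shRNA cells it went from 1173, 1134 and 1026 to 1296, 1374 and 1489 CPM (log2 0.32 ± 0.062, adjusted p = 0.000182). In Etv1 shRNA cells it went from 1216, 1218 and 1284 to 1418, 1467 and 1518 CPM (log2 0.24 ± 0.062, adjusted p = 0.00293). The PGE2 libraries lay above the IL-4 libraries each time without overlap, and the 3 calls held with each library left out in turn.

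mt-Co1 was at 7096, 6347 and 7393 CPM with IL-4 in wild type and at 7438, 7684 and 8061 CPM with PGE2 (log2 0.15 ± 0.055, adjusted p = 0.0185). This call was lost without IL-4 replicate 2 (log2 0.091, adjusted p = 0.147) or PGE2 replicate 3 (adjusted p = 0.0841). In control shRNA cells mt-Co1 went from 5743, 5941 and 5453 to 6516, 7048 and 7280.2 CPM (log2 0.28 ± 0.056, adjusted p = 0.000239). In Etv1 shRNA cells it went from 4885, 5141 and 5249 to 5729.6, 5925 and 6139 CPM (log2 0.22 ± 0.056, adjusted p = 0.00312). None of the 3 comparisons had overlapping groups.

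The other complex I gene called was mt-Nd4, at 609.5, 624 and 562 CPM with IL-4 and 643, 723 and 721 CPM with PGE2 in control shRNA cells (log2 0.22 ± 0.058, adjusted p = 0.00319). It was not called in wild type (0.092 ± 0.079) or Etv1 shRNA cells (0.11 ± 0.058). mt-Atp6 was called in control shRNA cells from 0.732, 0.678 and 0.451 to 1.58, 1.41 and 1.08 CPM (log2 0.99 ± 0.42, adjusted p = 0.0459), from a handful of counts per library. That call was lost with DESeq2 and when any of 5 libraries was left out, with adjusted p up to 0.135 without IL-4 replicate 3; it was kept only without PGE2 replicate 3. In the same comparison 3 nuclear copies were higher: Gm10925, the copy of mt-Atp6, at log2 0.87 ± 0.33, and Gm13340 and Gm29216, copies of mt-Co1, at 0.80 ± 0.22 and 0.89 ± 0.26. The part of the copies in the result was not tested. mt-Nd1, mt-Nd2 and mt-Cytb had log2 fold changes between -0.086 and 0.15 for PGE2 in the 3 settings, called in none but for that of mt-Nd1 under plain totals. With 1 library left out, mt-Co3 was called in control shRNA cells (without IL-4 replicate 1, 1.08, or PGE2 replicate 1, 0.82), as was mt-Nd3 (without PGE2 replicate 2, 0.98).

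mt-Atp8, measurable only in wild type, had the largest fold changes of the protein genes there for IL-4 and for PGE2. It was at 164, 172 and 243 CPM without stimulus, 143, 40 and 68.8 CPM with IL-4, 194, 212 and 208 CPM with PGE2 and 89.7, 103 and 142 CPM with valinomycin. The 3 IL-4 libraries spread widely, and all 3 lay below the unstimulated and the PGE2 libraries. The log2 fold change was -1.22 ± 0.40 for IL-4 (adjusted p = 0.0356) and 1.296 ± 0.40 for PGE2 on IL-4 (adjusted p = 0.0214). The IL-4 call was lost when any library but IL-4 replicate 1 was left out, with adjusted p up to 0.115 without unstimulated replicate 3. Without IL-4 replicate 1 the value was -1.83 and called, and without IL-4 replicate 2 it was -0.88 and not called. The PGE2 call was lost without IL-4 replicate 3 (adjusted p = 0.0734) or PGE2 replicate 2 (adjusted p = 0.0534). Valinomycin on IL-4 gave 0.42 ± 0.41, not called, but called as higher without IL-4 replicate 1 (1.04, adjusted p = 0.0349). A nuclear copy of mt-Atp8 was not looked for outside annotated transcripts, so its values are uncertain.

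IL-4 against no stimulus called no other protein gene in wild type, where mt-Nd1, mt-Nd2, mt-Co1, mt-Nd4, mt-Nd5 and mt-Cytb had log2 fold changes between -0.20 and -0.058. In control shRNA cells the same 6 genes had values between -0.0056 and 0.12, and in Etv1 shRNA cells between 0.041 and 0.16, again with none called. In wild type mt-Co1 was called as lower under 4 of the 7 other settings (only the groups compared, plain totals, no filter and the replicate block, at -0.15 to -0.12 with adjusted p from 0.0072 to 0.0447) and without IL-4 replicate 3 (-0.16, adjusted p = 0.0336). mt-Nd5 was called as lower without the filter (-0.15, adjusted p = 0.00462) and without IL-4 replicate 1 (-0.21, adjusted p = 0.0117).

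Valinomycin lowered 4 of the 8 tested protein genes and raised none with all libraries in the fit. mt-Cytb, the cytochrome b of complex III, was at 2066, 1509 and 2054 CPM with IL-4 and at 1256, 1225 and 1291 CPM with valinomycin (log2 -0.58 ± 0.10, adjusted p = 0.000729). mt-Nd4 was at 761, 603 and 786 and 526, 519 and 557 CPM (log2 -0.42 ± 0.079, adjusted p = 0.000635). For both genes the groups did not overlap, and the calls held with each library left out in turn.

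mt-Nd5 was at 934, 955 and 1060.4 CPM with valinomycin against the IL-4 values given above (log2 -0.29 ± 0.069, adjusted p = 0.00273), with 1 valinomycin library above the lowest IL-4 library. mt-Nd2, of complex I, was at 779, 468 and 629 CPM with IL-4 and 416, 389 and 503 CPM with valinomycin (log2 -0.52 ± 0.17, adjusted p = 0.0395), also with overlap. The mt-Nd2 call was lost without IL-4 replicate 1 (log2 -0.33, adjusted p = 0.102), IL-4 replicate 3 (adjusted p = 0.0891), valinomycin replicate 1 (0.116) or valinomycin replicate 2 (0.134). The largest protein gene by counts, mt-Co1, had -0.082 ± 0.055 and was not called, at 6294, 6483 and 6904 CPM with valinomycin. mt-Nd1 was at 1384, 866 and 1236 CPM with IL-4 and 988, 890.1 and 993 CPM with valinomycin (-0.28 ± 0.15, not called), and mt-Nd6 had -0.52 ± 0.39, not called. Without IL-4 replicate 2, the lowest of the IL-4 libraries, mt-Nd1 was called at -0.45 (adjusted p = 1.31e-05) and mt-Co1 at -0.14 (adjusted p = 0.0384), so that 8 members were called.

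**Figure D4:**
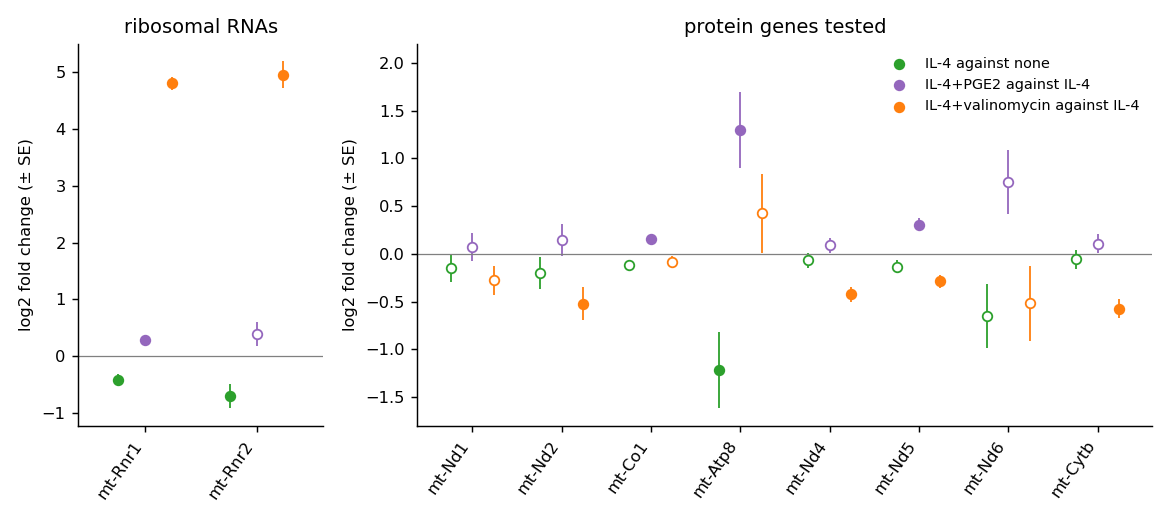
Log2 fold change (± SE) of each tested member in 3 wild type comparisons, rRNAs at left and protein genes at right on axes of their own; filled points are called at an adjusted p under 0.05. With valinomycin the rRNAs lie at 4.80 and 4.96 and mt-Cytb, the lowest protein gene, at -0.58.

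Set directly against each other, the PGE2 libraries were higher than the valinomycin libraries for 6 of the 8 protein genes tested and lower for both rRNAs. mt-Nd5 differed by log2 0.59 ± 0.069 (adjusted p = 5.65e-07), mt-Nd4 by 0.52 ± 0.079 (adjusted p = 4.33e-05), mt-Cytb by 0.68 ± 0.10 (adjusted p = 8.04e-05) and mt-Co1 by 0.24 ± 0.055 (adjusted p = 0.00063). mt-Cytb was at 2029.6, 2044 and 1985 CPM and mt-Nd4 at 734, 799 and 757 CPM with PGE2. mt-Nd2 (0.67 ± 0.17) and mt-Nd6 (1.27 ± 0.36) were also higher. The rRNAs were lower with PGE2, at -4.52 ± 0.11 for mt-Rnr1 and -4.57 ± 0.23 for mt-Rnr2. All 8 calls held with each library left out in turn.

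Both rRNAs were lower in Etv1 shRNA cells, mt-Rnr1 by more than mt-Rnr2. At each stimulus mt-Rnr1 was lower in Etv1 than in control shRNA cells: 47.9, 52.5 and 45.0 CPM against 89, 78.8 and 98.3 CPM without stimulus, where the log2 fold change was -0.87 ± 0.11 (adjusted p = 2.57e-06). With IL-4 it was -0.77 ± 0.11 (adjusted p = 1.31e-05) and with PGE2 -0.94 ± 0.11 (adjusted p = 7.02e-07). mt-Rnr2 was at 110.3, 132 and 116 against 147, 138 and 149 CPM without stimulus (log2 -0.27 ± 0.072, adjusted p = 0.00338). With IL-4 it was -0.20 ± 0.072 (adjusted p = 0.0251), lost without Etv1 shRNA replicate 1 (adjusted p = 0.0517) or 3 (0.0817) or control shRNA replicate 1 (0.0764), and with PGE2 -0.44 ± 0.071 (adjusted p = 3.07e-05).

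The ratio of mt-Rnr2 to mt-Rnr1 counts, which needs no scaling between libraries, was 2.30 to 2.59 in Etv1 shRNA and 1.52 to 1.75 in control shRNA libraries without stimulus. With IL-4 it was 2.51 to 2.78 against 1.73 to 1.83, and with PGE2 2.40 to 2.68 against 1.72 to 1.96. The 9 Etv1 shRNA libraries all lay above the 9 control shRNA libraries in this ratio, on which no test was run. Of 18 tested genes listed as RNAs usually made without a poly(A) tail, 7 were higher and 5 lower without stimulus, 7 and 4 with IL-4, and 10 and 4 with PGE2, where 51.7%, 51% and 54.3% of all genes were called. Lower were Rmrp, the RNA of RNase MRP (log2 -4.47 ± 0.57 with IL-4), the 7SK RNA Rn7sk (-2.04 ± 0.29 without stimulus) and Rpph1, the RNA of RNase P (-1.57 ± 0.29 with IL-4), and higher were histone genes such as Hist1h3d (2.00 ± 0.26 without stimulus). The summed level of that list was 190 to 265 CPM over Etv1 shRNA and 123 to 204 CPM over control shRNA libraries. Of the 8 macrophage markers, 6, 6 and 4 were lower, beside 26.8%, 25.6% and 26.7% of all genes, and 1 was higher at each stimulus. The part of these differences in the mitochondrial values was not tested.

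**Figure D5:**
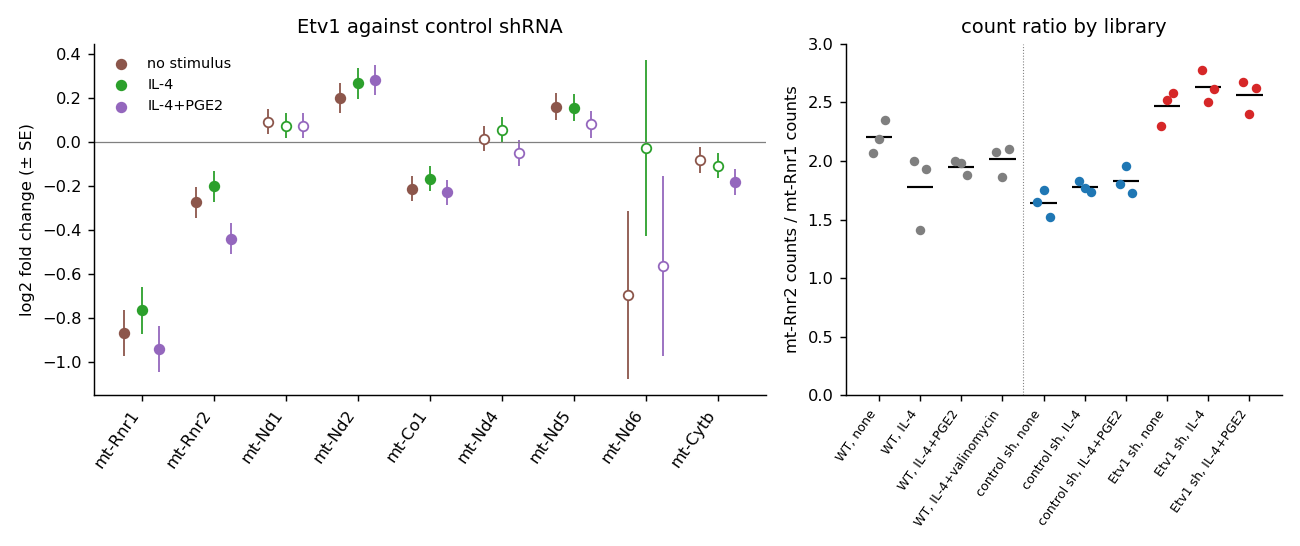
Left, log2 fold change (± SE) of Etv1 against control shRNA for 9 members without stimulus, with IL-4 and with IL-4 and PGE2, filled where called; right, the ratio of mt-Rnr2 to mt-Rnr1 counts in each of the 30 libraries, with a bar at the group mean. mt-Rnr1 lies between -0.94 and -0.77, and the ratio is at least 2.30 in the Etv1 shRNA libraries and at most 1.96 in the control shRNA libraries.

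Among protein genes, mt-Co1 was lower and mt-Nd2 higher in Etv1 than in control shRNA cells. The mt-Co1 calls were lost at every stimulus when scaled by plain totals, as given below. mt-Co1 was at 4800.0, 4962 and 5089 CPM in Etv1 shRNA and 5754, 5905 and 5543 CPM in control shRNA cells without stimulus, with log2 fold changes of -0.21 ± 0.056 (adjusted p = 0.00375), -0.17 ± 0.056 with IL-4 (adjusted p = 0.0189) and -0.23 ± 0.056 with PGE2 (adjusted p = 0.00194). The groups did not overlap at any stimulus. The call under IL-4 was lost without Etv1 shRNA replicate 1 (adjusted p = 0.0921) or control shRNA replicate 2 (0.0727).

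mt-Nd2 was at 704, 718 and 732 CPM in Etv1 shRNA and 679.9, 598 and 597 CPM in control shRNA cells without stimulus, with log2 fold changes of 0.20 ± 0.069 (adjusted p = 0.021), 0.27 ± 0.069 with IL-4 (adjusted p = 0.00317) and 0.28 ± 0.069 with PGE2 (adjusted p = 0.00184). The call without stimulus was lost without Etv1 shRNA replicate 3 (adjusted p = 0.0654) or control shRNA replicate 2 (0.0795) or 3 (0.0832). The ratio of mt-Nd2 to mt-Co1 counts was 0.134 to 0.163 over the Etv1 shRNA libraries and 0.0880 to 0.130 over the control shRNA libraries.

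mt-Nd5 was higher in Etv1 shRNA cells without stimulus (log2 0.16 ± 0.062, adjusted p = 0.0352) and with IL-4 (0.16 ± 0.062, adjusted p = 0.04) and not called with PGE2 (0.082 ± 0.062). The first of these calls was lost without any of the 3 Etv1 shRNA replicates or control shRNA replicate 3, with adjusted p up to 0.163 for the last. The second was lost without any of the 3 Etv1 shRNA replicates or control shRNA replicates 2 or 3, and without the last the value was 0.10 (adjusted p = 0.218).

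With PGE2, mt-Cytb was at 1562, 1706 and 1621 CPM in Etv1 shRNA and 1711, 1923 and 1906 CPM in control shRNA cells (log2 -0.18 ± 0.059, adjusted p = 0.0139), a call lost without Etv1 shRNA replicate 1 (adjusted p = 0.0723) or control shRNA replicate 3 (0.0595). mt-Co3, near 0 in both groups at 1.68, 1.12 and 1.47 and 1.83, 3.64 and 3.02 CPM, had -0.996 ± 0.34 (adjusted p = 0.017), lost without Etv1 shRNA replicate 2 (0.0641) or control shRNA replicate 3 (0.0727). The nuclear copies of mt-Co1, Gm13340 (-0.75 ± 0.22) and Gm29216 (-0.69 ± 0.25), were lower in the same comparison.

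The scaling of libraries bears on the hairpin comparisons. Scaled by plain totals, the median of all genes shifted up by 0.13 without stimulus, 0.127 with IL-4 and 0.159 with PGE2 on the log2 scale, and values here are relative to a median near 0. Under plain totals mt-Co1 was at -0.08, -0.037 and -0.071 and called at no stimulus, mt-Cytb with PGE2 was at -0.023 and not called, and mt-Rnr2 was at -0.14, -0.074 and -0.28 and called with PGE2 alone. mt-Nd2 was then at 0.33 without stimulus and 0.44 with PGE2, and mt-Nd5 at 0.29, 0.29 and 0.24, called at all 3 stimuli. mt-Nd1 was called as higher at all 3 stimuli (0.22, 0.20 and 0.23) and mt-Nd4 without stimulus and with IL-4 (0.15 and 0.19) under plain totals alone. No called member turned direction, and mt-Rnr1 was called as lower at all 3 stimuli under both scalings. Members that were not called did turn, from lower to higher under plain totals: mt-Cytb without stimulus (-0.082 to 0.05) and with IL-4 (-0.11 to 0.022), mt-Atp6 and mt-Tl1 without stimulus, mt-Nd6 with IL-4, and mt-Nd4 and mt-Tl1 with PGE2.

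mt-Nd6, the complex I gene of the minus strand, was uneven among replicates. In control shRNA cells it was at 29, 34.1 and 10.8 CPM without stimulus, 20.2, 20.7 and 9.69 CPM with IL-4 and 14.6, 9.5 and 21.9 CPM with PGE2, so that replicates of 1 group differed by up to a factor of about 3 and the groups overlapped. In wild type it was at 10.6, 5.98 and 7.27 CPM with IL-4, 14.2, 11.8 and 14 CPM with PGE2 and 3.13, 4.37 and 9.05 CPM with valinomycin. It was called in 1 comparison, PGE2 against valinomycin, given above. In fits of only the groups compared it was also called for IL-4 in wild type (-0.67, adjusted p = 0.0425) and for PGE2 in wild type (0.75, adjusted p = 0.00101) and in Etv1 shRNA cells (-0.62, adjusted p = 0.00322). With 1 library left out it was also called as lower with valinomycin (without valinomycin replicate 3, -1.07), higher with PGE2 in wild type (without IL-4 replicate 1, 1.01), and lower with IL-4 in control shRNA cells and lower in unstimulated Etv1 than control shRNA cells (both without unstimulated control shRNA replicate 3, -0.88 and -1.02). mt-Nd6 overlaps mt-Nd5 by 14 bases on the opposite strand, and the strand setting of the counting is not given in the sources used here; its counts and those of other overlapping members are therefore uncertain.

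The tRNAs were mostly too low to measure. No count fell on mt-Tf, mt-Td, mt-Tk, mt-Th or mt-Ts2 in any of the 30 libraries; 3 counts in a library would be 0.108 to 0.403 CPM at these depths, counting error only. Another 9 had a mean under 3 counts in every group and were taken as too low to measure: mt-Tv, mt-Tr, mt-Tl2, mt-Ts1, mt-Te, mt-Ty, mt-Tg, mt-Ta and mt-Tn. mt-Tc, mt-Tq, mt-Tp, mt-Ti and mt-Tt reached group means of 3 to 4.33 counts at most and were not tested. Of the rest, 3 passed the filter on low counts, mt-Tl1, mt-Tm and mt-Tw, and only in the shRNA experiment.

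mt-Tl1 was at 1.46, 0.904 and 1.13 CPM in control shRNA and 2.17, 1.56 and 1.49 CPM in Etv1 shRNA cells with IL-4, and mt-Tm, the methionine tRNA, at 1.68, 1.13 and 0.789 and 1.66, 2.02 and 1.77 CPM. Neither was called in any comparison. mt-Tw, for tryptophan, was at 1.1, 0.586 and 0.503 CPM in control shRNA and 1.34, 1.62 and 1.04 CPM in Etv1 shRNA cells with PGE2, overlapping groups with a log2 fold change of 1.02 ± 0.42 (adjusted p = 0.0467). That call was lost with DESeq2 and without Etv1 shRNA replicate 1 or 2 or control shRNA replicate 2 or 3, and without the last of these the value was 0.65 (adjusted p = 0.302). mt-Tw was also called with PGE2 in Etv1 shRNA cells without IL-4 replicate 1 (1.36, adjusted p = 0.0412). In wild type, where it had too few counts in the full fit, it was called without IL-4 replicate 1 for IL-4 (-1.64) and for PGE2 (1.68), and without PGE2 replicate 3 for PGE2 (1.61). mt-Tw shares 2 bases with mt-Nd2. The 8 tRNAs of the minus strand held 11 counts over the 3 unstimulated wild type libraries, 5 with IL-4, 10 with PGE2 and none with valinomycin, and the 14 of the plus strand held 42, 30, 43 and 29. These numbers are too small to compare.

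The nuclear genes that act on mitochondrial RNA are known by role, and their calls for PGE2 on IL-4 are given first. The shares of all genes called follow the last list. Of 14 tested genes of mitochondrial RNA stability and decay, PGE2 on IL-4 lowered 12 in wild type, 10 in control shRNA cells and 8 in cells with the Etv1 hairpin, and raised none, with a median log2 fold change of -0.39, -0.39 and -0.25 against 0.0059, -0.0082 and 0.0074 for all genes. They include Lrpprc, which binds and stabilises mitochondrial mRNAs (-0.81 ± 0.06 in wild type, adjusted p = 5.11e-11), Pde12, which removes poly(A) in mitochondria (-1.04 ± 0.064), and Supv3l1, the helicase of the mitochondrial degradosome (-0.65 ± 0.089). The stability and decay list also holds Twnk, Exog and Tdrkh, not RNA decay genes in the strict sense, and Twnk is counted under mtDNA transcription too. Of 22 processing and tRNA maturation genes, 13, 17 and 14 were lower and 1, 0 and 0 higher. Elac2, which cuts the 3′ ends of tRNAs, was at -0.65 ± 0.073 in wild type, and Trmt1, a tRNA methyltransferase, at -1.004 ± 0.063. Of 23 aminoacyl-tRNA synthetases and partner enzymes, 15, 14 and 13 were lower and 1, 1 and 0 higher. Some of them, such as Kars (-0.85 ± 0.055) and Gars (-0.77 ± 0.064), also serve the cytosol.

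In the same comparisons 9, 10 and 9 of 22 genes of rRNA handling were lower and 4, 3 and 1 higher. Nsun2, an RNA cytosine methyltransferase not confined to rRNA, was at -1.08 ± 0.055 in wild type. The 16S rRNA methyltransferases Mrm3 and Mrm2 were there at -1.12 ± 0.15 and 1.01 ± 0.11. Of the genes of mtDNA transcription and replication, 14 tested in wild type and 15 in shRNA cells, 5, 6 and 6 were lower and 1, 0 and 1 higher. Top1mt, the mitochondrial topoisomerase, fell most among the 4 named by rule (-1.81 ± 0.19, -2.29 ± 0.16 and -1.66 ± 0.15), and the polymerase gene Polrmt was at -0.29 ± 0.07, -0.36 ± 0.068 and -0.45 ± 0.069. About 29.5%, 30.1% and 22.8% of all genes were called lower in these comparisons, and 29.9%, 29.3% and 24.6% higher.

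With valinomycin, where 19.4% of all genes were called higher and 18.9% lower, calls among these nuclear genes went in both directions: 4 higher and 4 lower of 14 for stability and decay, 4 and 1 of 22 for rRNA handling, 4 and 1 of 22 for processing and tRNA maturation, 2 and 2 of 14 for transcription, and 3 and 5 of 23 for the synthetases. Mtpap, the mitochondrial poly(A) polymerase, was higher (log2 0.61 ± 0.07, adjusted p = 2.58e-07) and Pde12 lower (-0.25 ± 0.06, adjusted p = 0.00177). Trmt10c, a subunit of mitochondrial RNase P, was at 0.52 ± 0.084, Trnt1, which adds CCA to tRNAs, at 0.47 ± 0.074, and Trmt61b, an rRNA and tRNA methyltransferase, at 0.65 ± 0.13. Polg, the mtDNA polymerase, was at -0.38 ± 0.057, and Mterf3, of the mitochondrial transcription termination factor family, at 0.42 ± 0.087.

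IL-4 against no stimulus in wild type raised 4 and lowered 2 genes of stability and decay, with Pde12 at 1.53 ± 0.067, and 7 and 2 of processing, 5 and 0 of rRNA handling, 2 and 1 of transcription and 7 and 0 of the synthetases, beside 24% of all genes higher and 22.4% lower. Pde12 was raised by IL-4 in control and Etv1 shRNA cells too, by 1.90 ± 0.15 and 1.56 ± 0.14. Between the hairpins, Etv1 shRNA cells had 2, 4 and 6 of 15 transcription genes lower and 1, 2 and 3 higher over the 3 stimuli, and 5, 8 and 7 of 22 rRNA handling genes lower and 2, 0 and 3 higher, beside 26.8%, 25.6% and 26.7% of all genes lower and 24.9%, 25.4% and 27.6% higher. Among the latter was Eral1, which binds the 12S rRNA mt-Rnr1 in assembly of the small ribosomal subunit, at -0.56 ± 0.091, -0.72 ± 0.092 and -0.51 ± 0.092. Pde12 was higher in Etv1 shRNA cells, at 0.87 ± 0.15, 0.53 ± 0.14 and 0.88 ± 0.15. Counts of these lists are descriptions, and no test of a list was run.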

How the data were processed

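RNA from 30 macrophage samples in 10 groups of 3 was measured with TruSeq stranded mRNA libraries, per the labels' protocols. The deposited tables hold raw counts per gene, and the submitters' processing notes name STAR, featureCounts, DESeq2, deepTools and GRCm38. Versions, the strand setting and the treatment of reads with several matches are not given in the sources used here. Of 43629 gene IDs, 42462 matched GENCODE M21.

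Each experiment was fitted on its own (12 wild type and 18 shRNA libraries, group means as design) with edgeR 4.0.16, TMM scaling, the default low-count filter and the robust quasi-likelihood test in R 4.3.3. P-values were adjusted over all genes tested (Benjamini-Hochberg). Standard errors are the log2 fold change divided by the root of the test's F. CPM use the TMM library sizes, and CPM per kilobase divide by the transcript's length. No scale joins the experiments. The fit was tested on simulated data. Libraries held 6924973 to 30473040 counts, so 3 counts are 0.108 to 0.403 CPM. All replicates differed by more than sampling noise (lowest chi-square per degree of freedom 1.235). Nuclear copies were found with blastn on GENCODE M21 transcripts (word size 11, at least 50 bases and 95% identity, same strand).

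Per-library values were printed for both rRNAs and for called protein genes and tRNAs (up to 4 per comparison and class, smallest adjusted p); lists name up to 4 genes the same way, and other genes were named after their values were seen. A tRNA under 3 mean counts in every group was called too low to measure. The members and lists were chosen with earlier results of these data known. Alternatives were DESeq2 1.42.0, its size factors in edgeR, plain totals, scaling without the mitochondrial chromosome, no filter, only the groups compared, the replicate number as a block, and leaving out each library. Within each hairpin, for IL-4 and for PGE2 on IL-4, all 3 same-numbered pairs correlated above 0.1 in their deviations (0.106 to 0.49). Different-numbered pairs there reached 0.0252 in Etv1 shRNA and 0.16 in control shRNA cells. The numbers therefore pair the Etv1 shRNA libraries and, less plainly, the control shRNA libraries. Among the wild type groups with IL-4 the same-numbered pairs were at 0.0529 to 0.198. Every different-numbered pair there was at 0.0337 or less, so a weaker pairing shows among those groups too. Same-numbered pairs with unstimulated wild type libraries were at -0.0758 to 0.0253. Between hairpins they ran from -0.0526 to 0.251. A pairing with the unstimulated wild type libraries or between hairpins is not excluded. Only the block fits allow for any pairing, and the main p-values ignore it. The labels do not say what a number stands for.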

Additional observations from a re-analysis of the deposited data

Results flagged for a closer look

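In each of the 2 results here, the groups compared did not overlap in 2 settings, and the direction was opposite between these settings. The difference between the settings was not tested. These results were picked by that rule, and the share of all genes that meets it is not given here. For mt-Nd6, the complex I gene of the minus strand, the log2 fold change of IL-4 with PGE2 against IL-4 was 0.76 in wild type, with all 3 PGE2 libraries above the IL-4 libraries, and -0.61 in Etv1 shRNA cells, with all 3 below. Neither value was called (adjusted p = 0.0826 and 0.257), but both were in fits of only the groups compared (0.75, adjusted p = 0.00101, and -0.62, adjusted p = 0.00322). For mt-Co2, the complex IV gene with an identical nuclear copy and few counts, Etv1 against control shRNA gave 0.65 without stimulus. With IL-4 and PGE2 it gave -0.41, and neither was called (adjusted p = 0.114 and 0.291). The gap was small: without stimulus the lowest Etv1 shRNA library was at 1.327 CPM and the highest control shRNA library at 1.321 CPM. With PGE2 the highest Etv1 shRNA library was at 1.513 CPM and the lowest control shRNA library at 1.585 CPM.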

How the results depend on the processing

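Over the 13 comparisons, 47 calls of members were made. Under DESeq2, edgeR with DESeq2's size factors, plain totals, scaling without the mitochondrial chromosome, no filter, only the groups compared and the replicate block, 303 of 328 values kept direction and call, 25 lost the call and none reversed; with 1 library left out, 228 of 282 kept it and 54 lost it. Fitting only the groups compared gave 2 called members in place of 4 for PGE2 in wild type, 5 in place of 3 for PGE2 in Etv1 shRNA cells, and 1 in place of 0 for IL-4 in Etv1 shRNA cells; in wild type it lost mt-Rnr2 and mt-Atp8 for IL-4, mt-Rnr1, mt-Co1 and mt-Atp8 for PGE2 and mt-Nd2 for valinomycin, and called mt-Co1 and mt-Nd6 for IL-4, mt-Nd6 for PGE2, and mt-Nd1 and mt-Atp8 for PGE2 against valinomycin. Of all genes, fitting only the groups compared called 7377 in place of 7617 for PGE2 in wild type. In Etv1 shRNA cells it called 6120 in place of 5878 for PGE2 and 2476 in place of 2233 for IL-4. With 1 library left out, the counts of called members ranged in wild type from 1 to 5 for IL-4 and 2 to 5 for PGE2. For valinomycin they were 5 to 8 and for PGE2 against valinomycin 8 to 8. They ranged from 0 to 1 for IL-4 and 5 to 6 for PGE2 in control shRNA cells and from 0 to 0 and 2 to 3 in Etv1 shRNA cells. Etv1 against control shRNA gave 3 to 5 without stimulus, 2 to 4 with IL-4 and 4 to 7 with PGE2. The differences between hairpins gave 0 to 1 for PGE2 and 0 to 0 for IL-4. All genes called with 1 library left out ranged from 5258 to 5825 for IL-4 in wild type (5952 with all libraries). For Etv1 against control shRNA under IL-4 they ranged from 5548 to 5981 (6317 with all). Scaled by plain totals, the summed protein genes were at 11532 CPM in control shRNA cells with PGE2, and at 10771 and 11000 CPM in Etv1 shRNA cells without stimulus and with IL-4; the rRNAs with IL-4 were at 209.9 CPM in control and 176 CPM in Etv1 shRNA cells. These 5 sums moved by more than their SD, and the cause of the other changes was not tested.

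Same-numbered libraries correlated above 0.1 in their deviations in 5 of 18 pairs in wild type and 34 of 45 in the shRNA experiment, and 9 of 12 and 17 of 18 libraries correlated best with their own number. With the number as a block, 46 of the 47 calls remained, mt-Atp8 for IL-4 in wild type was lost (adjusted p = 0.0529), and IL-4 in control shRNA cells called 1 member, mt-Cytb, in place of 0. The block also added mt-Co1 for IL-4 in wild type (-0.12, adjusted p = 0.0349) and mt-Tw for PGE2 in Etv1 shRNA cells (0.96, adjusted p = 0.046). At these depths 3 counts correspond to 0.108 to 0.403 CPM, and 14 of the 22 tRNAs had a mean under 3 counts in every group.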
